A study of Mus musculus with 6 samples.

Results

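Aminoacyl-tRNA synthetases are the enzymes that load each amino acid onto its tRNA, the step that sets the genetic code in every cell. Mammals use separate sets for the cytosol and for mitochondria, both encoded in the nucleus, so a cytosolic gene usually has a mitochondrial partner whose symbol ends in 2 (Lars and Lars2 for leucine). Several cytosolic enzymes sit together in a multisynthetase complex around the scaffold proteins AIMP1 and AIMP2. T cells leave rest with a large rise in protein synthesis, for which charged tRNA is needed.

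Transcripts of these genes were measured in naïve CD4 T cells that had not been stimulated. The genes were taken by symbol from the authors' edgeR table of 11221 genes, as the names built on 1 amino acid letter followed by ars or ars2, together with Eprs, Farsa, Farsb, Qars, Aimp1 and Aimp2. This gave 39 genes, of which 20 encode cytosolic enzymes or subunits, 17 mitochondrial enzymes and 2 the scaffolds. The name Aimp2 also ends in 2, but its protein is a scaffold, so it was kept out of the mitochondrial class. Kars and Gars were counted as cytosolic although each is known to make both forms of its enzyme, and mitochondria load glutamine by way of EARS2 and an amidotransferase, so Qars has no partner here. Eprs encodes 1 protein that serves both glutamate and proline, while Farsa and Farsb encode the subunits of 1 enzyme.

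There were 3 control libraries, from male Rnmt fl/fl mice without the CD4cre transgene, and 3 Rnmt cKO libraries, from male Rnmt fl/fl mice with it. RNMT is the methyltransferase that completes the mRNA cap by methylating its guanosine. Both groups thus carried floxed Rnmt alleles on a C57B6/J background, and the transgene and the deletion cannot be told apart. The transgene, driven by Cd4 regulatory sequence, acts from the double positive thymocyte stage on, so the cells had passed part of their development without intact Rnmt. Cells were sorted from lymph nodes as TCRb+ CD4+ CD62L+ CD44-. The age of the mice was not given in the sources used here.

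Sense counts over genes ranged from 8873413 to 11277764 per library, and the 6 libraries differed from each other by more than sampling noise. Rnmt itself stood at 56.02 ± 3.94 CPM without the transgene and at 35.3 ± 7.88 CPM with it (SD, n = 3 per group). These levels count reads over the whole gene, including exons outside the floxed part. They therefore do not measure how complete the deletion was. The paper reports that reads from the floxed exon were lost and that RNMT protein was minimal in naïve Rnmt cKO cells. All 14 markers of naïve CD4 T cells passed the filter on low counts, with a summed level of 7442 to 8244 CPM in the controls and 7759 to 9021 CPM in Rnmt cKO cells. By the test given below, 3 of the 14 were lower and 2 higher (35.7%, against 14.8% of all genes). Their log2 fold changes ran from -0.96 to 0.57. The 14 B cell markers summed to 132 to 166 CPM in the controls and to 181 to 302 CPM in Rnmt cKO cells, and the 5 tested markers of myeloid cells and neutrophils to 5.89 to 8.46 CPM and 15.2 to 34.7 CPM. The 2 CD8 T cell markers summed to 21.7 to 23.3 CPM and 13.5 to 17.3 CPM, the 2 tested erythroid markers to 3.87 to 5.996 CPM and 0.634 to 0.896 CPM, and the 5 tested plasma cell markers, with 3 higher and 1 lower, to 348 to 407 CPM and 293 to 451 CPM, in the same order of groups. No marker of any of these lists was at 0 counts in all libraries. The filter on low counts removed 4 of the 6 erythroid markers and 8 of the 13 markers of myeloid cells and neutrophils. The 2 erythroid markers kept summed to less than 1 CPM in each Rnmt cKO library, so they passed it through the controls. A myeloid marker with a control mean of 0.179 CPM passed it through the Rnmt cKO libraries. Differences in markers kept in this way are partly set by the filter. The part of those cells in the results below was not tested, and in such bulk libraries fewer cells of a type and less RNA per cell cannot be told apart.

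In the whole comparison 1831 of the 12336 genes tested, or 14.8%, passed the threshold of an adjusted p of 0.05 in edgeR's exact test, 6.84% of genes as lower and 8% as higher in Rnmt cKO cells. All 39 synthetase and scaffold genes were among the genes tested, none held less than 9.03 CPM (read counts scaled to a common library size by TMM) in any library, and 4 of them (10.3%) passed. Lars2, Rars2 and Dars were lower in Rnmt cKO cells, while Vars was higher. With so few genes, this share was not far from that of all genes.

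Start sites are shown first, because the cap that RNMT methylates is joined to the first base of the transcript and the study turns on mRNAs that begin with a C followed by a run of pyrimidines (TOP mRNAs). RefSeq start sites on GRCm38.p6 were found for 29 of the 39 genes, with 31 start sites in all. Cars, Hars, Hars2, Lars, Nars, Pars2, Rars, Vars and Wars were not among them. Below, each sequence holds 15 bases before the start site and 15 from it on, with the first transcribed base, or the pyrimidine run that it opens, in capitals. The 3 genes that were lower in Rnmt cKO cells are given with Wars2, which alone among the 31 start sites began with a C and at least 4 more pyrimidines.
Dars (chr1:128417402-128417431, minus strand): tcccgtgggcggggcAgagggaggagctgg
Rars2 (chr4:34614942-34614971, plus strand): agcagaggcgacttcCggcgcggaggcggg
Lars2 (chr9:123366912-123366941, plus strand): gcggcctcccctttcGataaagttgttgtt
Wars2 (chr3:99141075-99141104, plus strand): gccggcggccccgccCTTCTCaagatggcg
Such a start was thus present in 3.23% of the start sites of these genes, against 2.51% of all 32851 RefSeq start sites. None of Dars, Rars2 and Lars2 had one at the annotated position. Rars2 began with a C, but its next base was a G. Farsb opened with a run of 4 pyrimidines and came 1 base short. These letters are those of the annotated start, and the start used in these cells was not measured.

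The same promoter windows, 250 bases before to 50 bases after each start, were searched on both strands for TGATGNAAN, the composite element bound by ATF4, the factor that raises synthetase genes when amino acids run short. It was found in 5 of the 13 cytosolic windows (38.5%), in none of the 15 mitochondrial windows and in 3.95% of all promoter windows. Of the 6 matches, 5 are shown with 10 bases before each and the element in capitals, each written 5′ to 3′ on the strand of its gene.
Aars (chr8:111033840-111033869, plus strand): agcgggtcacTTTTCATCAgagcgctctga
Gars (chr6:55037960-55037989, plus strand): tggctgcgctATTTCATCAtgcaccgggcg
Iars (chr13:49682126-49682155, plus strand): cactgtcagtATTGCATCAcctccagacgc
Tars (chr15:11399655-11399684, minus strand): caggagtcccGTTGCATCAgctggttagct
Yars (chr4:129189896-129189925, plus strand): cgagctcagcTGATGCAACccgacgggact
In Yars the element lay on the strand of the gene, and in the other matches shown on the opposite strand. None of these 5 genes passed the threshold between the groups.

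Levels were compared between genes per kilobase of exon (CPM per kb). In controls the cytosolic genes ranged from 11.6 to 51.9 with a median of 28.6 CPM per kb, and the mitochondrial genes from 2.96 to 18.0 with a median of 6.10 CPM per kb. Aimp1 stood at 41.6 ± 2.85 and Aimp2 at 16.0 ± 0.515 CPM per kb (SD, n = 3 each). The cytosolic set as a whole took 0.152% to 0.183% of the gene counts in controls and 0.183% to 0.193% in Rnmt cKO cells, and the mitochondrial set 0.0491% to 0.0555% and 0.0504% to 0.0608%. After TMM scaling the summed cytosolic level was 1729 ± 163 CPM in controls, against 1799 ± 131 CPM in Rnmt cKO cells (SD over 3 libraries), and the groups overlapped. For the mitochondrial set these sums were 549 ± 15.2 CPM and 541 ± 30.5 CPM, which overlapped as well.

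**Figure D1:**
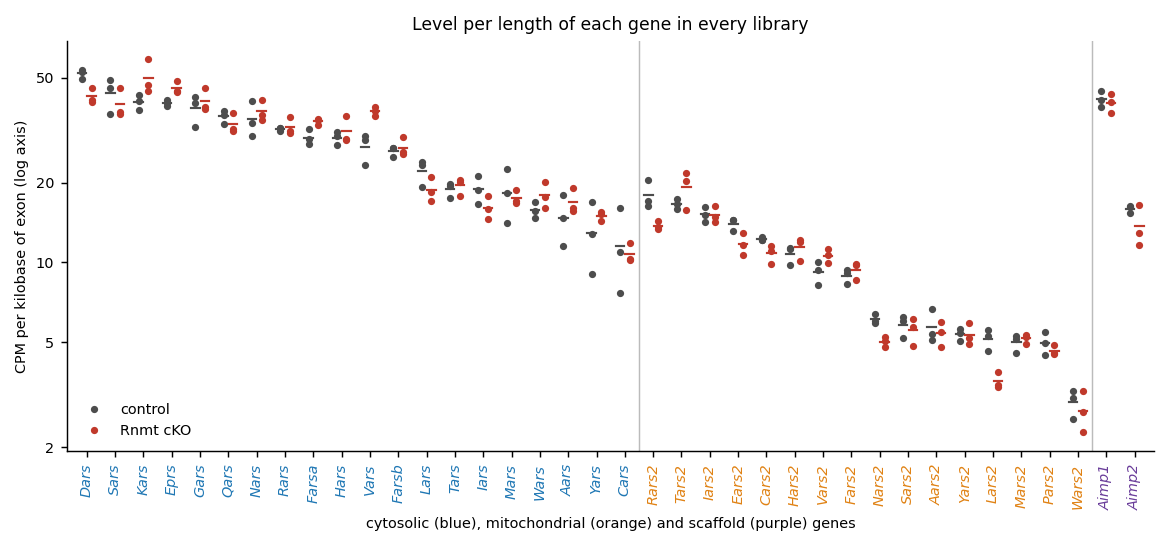
Level of the genes per kilobase of exon (CPM per kb, log axis) in every library, with control libraries in grey, Rnmt cKO libraries in red and short lines at the group means. Genes are ordered by their control mean within the cytosolic, mitochondrial and scaffold classes. Dars, at 51.9 CPM per kb in controls, was at the top of the cytosolic genes and Wars2, at 2.96, at the bottom of the mitochondrial ones.

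The highest cytosolic levels in controls were those of Dars (aspartate; 51.9 ± 2.26 CPM per kb), Sars (serine; 43.7 ± 6.57) and Kars (lysine; 40.5 ± 2.62), all SD with n = 3. The lowest were those of Yars (tyrosine), at 12.9 ± 3.92 CPM per kb, and Cars (cysteine), at 11.6 ± 4.25. Many neighbours in this order did not differ beyond their spread, for example Kars and Eprs (40.2 ± 1.08 CPM per kb) or Farsa (29.7 ± 1.98) and Hars (29.7 ± 1.68). Among mitochondrial genes Rars2 (arginine; 18.0 ± 2.25 CPM per kb), Tars2 (threonine; 16.6 ± 0.706) and Iars2 (isoleucine; 15.2 ± 0.999) were highest. Wars2 (tryptophan), at 2.96 ± 0.362 CPM per kb, was lowest. These figures divide by all annotated exon bases of a gene. Mars2, a gene of 1 long exon of 11294 bases, is low on this scale at 4.996 ± 0.394 CPM per kb, although at 56.4 ± 4.45 CPM it came behind only Iars2 and Tars2 among the mitochondrial genes before length was taken into account. The last 1326 bases of the Aars model are those of Exosc6, so its level and length are uncertain, and a processed pseudogene, Gm4849, matches 1656 bases of Iars at 96.0% identity.

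Differences between the groups were first examined for the enzymes of the cytosol. Of the 20 cytosolic genes 1 was lower, 1 was higher and 18 did not pass the threshold. Their median log2 fold change was 0.06, against 0.01 for all genes tested, but it fell to -0.03 without Rnmt cKO library 3.

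Vars (ENSMUSG00000007029, chromosome 17, 35000987 to 35016322, plus strand, mm10) encodes valyl-tRNA synthetase, which works outside the complex together with elongation factor 1. It stood at 120.2, 124 and 96.5 CPM in control libraries 1, 2 and 3 and at 154, 148 and 161 CPM in Rnmt cKO libraries 1, 2 and 3. Every Rnmt cKO library was thus above every control, with control 3 the lowest of the 6. The log2 fold change was 0.44 (SE 0.12, adjusted p = 0.00116, edgeR exact test, n = 3 per group). It passed without any 1 of the 6 libraries, with values from 0.34 to 0.51.

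Dars (ENSMUSG00000026356, chromosome 1, 128363707 to 128417368, minus strand) encodes the aspartyl enzyme of the multisynthetase complex. Its levels were 132, 129.7 and 121 CPM in the controls and 99.5, 101 and 113 CPM in Rnmt cKO cells. The groups did not overlap, and the gap between the closest libraries was narrow. The log2 fold change was -0.29 (SE 0.07, adjusted p = 0.0221, edgeR exact test). The call was lost without control library 1 or 2 or Rnmt cKO library 1 or 2, where the adjusted p was 0.136 to 0.147.

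**Figure D2:**
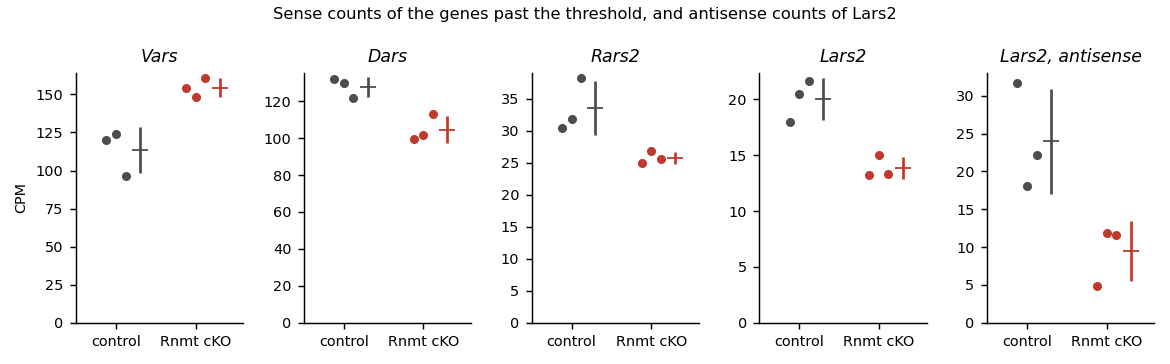
Sense level (CPM, axes from 0) of Vars, Dars, Rars2 and Lars2 in each library, and the antisense level of Lars2 in the last panel. Points are libraries 1, 2 and 3 of control (grey) and Rnmt cKO (red) cells, and the bars beside them show mean ± SD (n = 3). In each panel the groups do not overlap; Vars was 114 CPM in the controls and 154 CPM in Rnmt cKO cells on average, and Lars2 was 20.03 and 13.9 CPM on the sense strand.

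The remaining genes of the complex pointed in both directions. Kars, whose product also serves mitochondria, was at 96.4, 91.8 and 84.7 CPM in the controls and 100.2, 106 and 132 CPM in Rnmt cKO cells. These groups did not overlap, with Rnmt cKO library 3 far above the rest, but the log2 fold change of 0.31 (SE 0.13) had an adjusted p of 0.0654 by edgeR (0.0318 without Rnmt cKO library 1). Eprs, the joint enzyme for glutamate and proline, was at 192, 203 and 196 CPM in the controls and 219, 217 and 238 CPM in Rnmt cKO cells. Its groups did not overlap either, and its log2 fold change of 0.19 (SE 0.05) had an adjusted p of 0.182 by edgeR. Qars, the glutaminyl enzyme, was at 105, 101 and 93.4 CPM in the controls and 88.0, 89.6 and 103 CPM in Rnmt cKO cells, with a log2 fold change of -0.09 (SE 0.09). Those values overlapped. Lars and Iars, for leucine and isoleucine, had log2 fold changes of -0.24 and -0.23 (SE 0.13 each), with adjusted p-values of 0.192 and 0.202 by edgeR and overlapping groups. Without Rnmt cKO library 3 Lars passed, at -0.34 with an adjusted p of 0.0105 (edgeR exact test). Rars (0.02) and Mars (-0.06) lay near 0. Over the 8 complex enzymes the median log2 fold change was -0.08, with 1 lower and none higher (2 lower and 2 higher with an unadjusted p below 0.05; also 1 lower and none higher by the DESeq2 Wald test and by edgeR's quasi-likelihood test).

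The scaffolds of the complex did not pass the threshold. Aimp1 was at 50.2, 43.8 and 46.4 CPM in the controls and 41.3, 45.6 and 48.7 CPM in Rnmt cKO cells, a log2 fold change of -0.05 (SE 0.09). Aimp2 was at 18.3, 19.4 and 19.4 CPM in the controls and 15.4, 13.9 and 19.7 CPM in Rnmt cKO cells, where libraries 1 and 2 were below the controls and library 3 above them. Its log2 fold change was -0.22 (SE 0.15). Without Rnmt cKO library 3 it was -0.40 with an adjusted p of 0.0383 (edgeR exact test). Aimp2 overlaps Eif2ak1 on the opposite strand by 1548 bases, and 9.43% of the reads over its exons were antisense.

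Outside the complex, 1 of the 12 cytosolic genes (Vars) passed, and the median log2 fold change was 0.09. Farsa, the catalytic subunit of the phenylalanyl enzyme, was at 58.2, 51.1 and 53.3 CPM in the controls and 63.3, 60.7 and 64.0 CPM in Rnmt cKO cells. The groups did not overlap, and the log2 fold change of 0.21 (SE 0.06) had an adjusted p of 0.160 by edgeR. Farsb, the other subunit, was at 55.1, 59.5 and 59.9 CPM in the controls and 57.7, 56.4 and 65.3 CPM in Rnmt cKO cells, a log2 fold change of 0.04 (SE 0.08). These overlapped. The subunits were close to each other per length, with a Farsa over Farsb ratio of 1.13 ± 0.127 in the controls and 1.27 ± 0.0756 in Rnmt cKO cells (SD, n = 3 each), also overlapping.

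Gars, the glycyl enzyme of both compartments, was at 95.7, 101 and 77.8 CPM in the controls and 92.1, 90.7 and 109 CPM in Rnmt cKO cells, a log2 fold change of 0.09 (SE 0.14). Sars was at 166, 179 and 133 CPM in the controls and 135, 133 and 167 CPM in Rnmt cKO cells (-0.14, SE 0.17). In both genes the groups overlapped. Wars, the tryptophanyl enzyme and a gene that interferons induce, was at 48.8, 45.1 and 42.2 CPM in the controls and 46.0, 50.7 and 58.0 CPM in Rnmt cKO cells. Its groups overlapped, and its log2 fold change was 0.19 (SE 0.11, adjusted p = 0.349, edgeR). Interferon-stimulated genes as a list, which did not include Wars, gave 28 higher and 2 lower of 50 tested, with a median log2 fold change of 0.41. This was 60% of the list, against 14.8% of all genes. The part of interferon in the Wars value was not tested. The log2 fold changes of Aars (0.20), Yars (0.21), Nars (0.10), Hars (0.08), Tars (0.05) and Cars (-0.10) did not pass either.

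Mitochondrial enzymes were then examined. Of the 17 genes 2 were lower, none was higher and 15 did not pass (4 lower and none higher with an unadjusted p below 0.05, against 11.7% of all genes lower and 13.3% higher; 1 lower, Lars2, and none higher by the DESeq2 Wald test and by edgeR's quasi-likelihood test). Their median log2 fold change was -0.09, 12 of the 17 being below 0, but scaling by library size alone turned this median to 0.04. Scaled that way the median of all genes tested was 0.14, so that the mitochondrial genes stood 0.10 below it and the cytosolic genes 0.05 above it on the log2 scale.

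Lars2 (ENSMUSG00000035202, chromosome 9, 123366927 to 123462666, plus strand), the leucyl enzyme of mitochondria, had the largest change of the 39 genes. It was at 18.0, 20.5 and 21.6 CPM in the controls and 13.2, 15.02 and 13.4 CPM in Rnmt cKO cells. The groups did not overlap. Its log2 fold change was -0.53 (SE 0.10, adjusted p = 0.00427, edgeR exact test), and without control library 2 the adjusted p was 0.0530. The counts behind this were small, at 125 to 205 sense reads per library.

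Reads over Lars2 were unusual in their strand. Of all reads over its exons 49.0% were antisense, while for 34 of the other genes that share was under 5%, and no gene is annotated on the opposite strand there. Antisense reads numbered 269, 181 and 201 in controls and 46, 141 and 130 in Rnmt cKO cells, or 24.0 ± 6.95 and 9.47 ± 3.99 CPM (SD, n = 3 each), without overlap. With reads of either strand counted, the log2 fold change of Lars2 was -0.91. Bases 3278 to 3349 of its transcript match the noncoding Gm15564 at 98.6% identity, itself at 5 reads or fewer in every library. Gm26917 and Gm42418, noncoding annotations on chromosome 17 whose reads are known to come largely from ribosomal RNA, fell in Rnmt cKO cells by 0.91 and 1.01 on the log2 scale, with adjusted p-values of 8.32e-06 and 3.49e-06 (edgeR). The mitochondrial ribosomal RNA mt-Rnr2 fell as well, by 0.59 (adjusted p = 2.51e-04, edgeR). The part of these RNAs in the Lars2 result was not tested.

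Rars2 (ENSMUSG00000028292, chromosome 4, 34614957 to 34660167, plus strand), the mitochondrial arginyl enzyme, was at 30.4, 31.8 and 38.3 CPM in the controls and 24.9, 26.8 and 25.5 CPM in Rnmt cKO cells. The groups did not overlap, with control 3 the highest. The log2 fold change was -0.38 (SE 0.11, adjusted p = 0.0262, edgeR exact test). Antisense reads were 0.339% of its reads. The call was lost without control library 2 (adjusted p = 0.0684) or 3 (0.200), or without Rnmt cKO library 1 (0.121) or 2 (0.0689), and the quasi-likelihood test of edgeR gave 0.0511.

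Nars2 and Ears2 followed in size. Nars2, for asparagine, was at 24.6, 24.95 and 26.4 CPM in the controls and 20.9, 21.6 and 19.8 CPM in Rnmt cKO cells, a log2 fold change of -0.28 (SE 0.05, adjusted p = 0.108, edgeR). Ears2, for glutamate and the first step towards mitochondrial glutaminyl-tRNA, was at 26.8, 29.6 and 29.6 CPM in the controls and 26.5, 21.9 and 23.8 CPM in Rnmt cKO cells, a log2 fold change of -0.26 (SE 0.09, adjusted p = 0.190, edgeR). Neither gene's groups overlapped, although for Ears2 control library 1 and Rnmt cKO library 1 lay close together. Cars2, with -0.18 and no overlap, did not pass.

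Tars2, at 69.1, 75.3 and 72.0 CPM in the controls and 95.1, 88.7 and 68.7 CPM in Rnmt cKO cells, had a log2 fold change of 0.22 (SE 0.15) that rested on libraries 1 and 2. Without Rnmt cKO library 3 its adjusted p was 0.00203 (edgeR exact test). Iars2 was at 109, 101 and 95.2 CPM in the controls and 109, 94.998 and 98.8 CPM in Rnmt cKO cells, a log2 fold change of -0.01 (SE 0.08). Its groups overlapped. Wars2, with its pyrimidine start, was at 11.3, 13.6 and 14.4 CPM in the controls and 11.9, 14.4 and 10.04 CPM in Rnmt cKO cells, again overlapping, with a log2 fold change of -0.11 (SE 0.18). The other mitochondrial genes (Aars2, Fars2, Hars2, Mars2, Pars2, Sars2, Vars2 and Yars2) had log2 fold changes from -0.10 to 0.20 and did not pass. Hars2 overlaps Hars head to head by 198 bases, and 12.6% of its reads were antisense, as were 12.2% of those of Mars2.

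**Figure D3:**
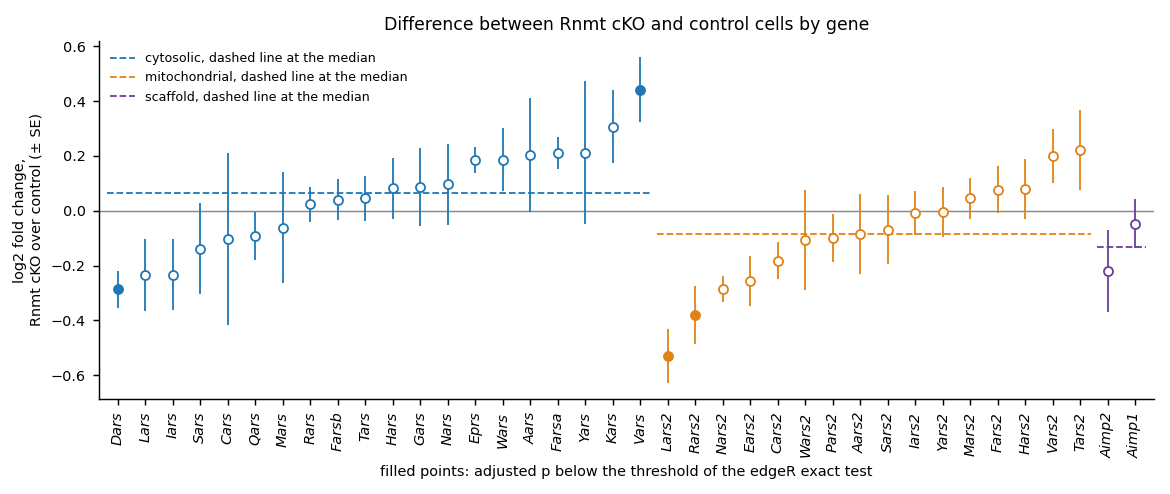
Log2 fold change of the genes, Rnmt cKO over control, with its SE (n = 3 libraries per group), in cytosolic (blue), mitochondrial (orange) and scaffold (purple) genes. Filled points passed the threshold in edgeR's exact test (Lars2, Rars2, Dars and Vars), and dashed lines mark class medians of 0.06, -0.09 and -0.13, of which the mitochondrial one was 0.04 when libraries were scaled by size alone.

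Counting groups without overlap, 5 of the 17 mitochondrial genes were lower and none higher in Rnmt cKO cells, and 1 of the 20 cytosolic genes was lower and 4 were higher. Among all genes tested 14.9% were lower and 16.6% higher by this measure, or 31.4% in both directions, and 25.6% of the 39 genes were. For the mitochondrial genes it was 29.4%, all in one direction but near the share of all genes. These counts use levels scaled by TMM. With library size alone, 1 mitochondrial gene was lower and 2 were higher with an unadjusted p below 0.05 (edgeR exact test).

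Ratios within a library do not depend on how libraries are scaled, so each cytosolic gene was divided by its mitochondrial partner per length. Such ratios were taken for 17 pairs, with Eprs set against both Ears2 and Pars2, and both Farsa and Farsb against Fars2. In 14 pairs the cytosolic gene was higher per length in all 6 libraries. For Mars over Mars2 this rested on exon lengths of 2963 and 11294 bases. Before division by length, Mars was at 54.35 ± 12.5 and Mars2 at 56.4 ± 4.45 CPM in controls (SD, n = 3 each). The ratio of Aars shares the uncertain level and length of the Aars model. The pairs of Cars, Iars and Tars crossed a ratio of 1. Control means ran from 0.939 for Cars over Cars2 to 8.17 for Eprs over Pars2, with a median of 2.97.

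In 5 pairs every Rnmt cKO ratio lay above every control ratio, and in none did every one lie below. Eprs over Ears2 was 2.99, 2.85 and 2.77 in controls and 3.44, 4.13 and 4.15 in Rnmt cKO cells, a difference of 0.44 on the log2 scale (SE 0.10). Rars over Rars2 was 1.99, 1.85 and 1.57 in controls and 2.31, 2.18 and 2.60 in Rnmt cKO cells (0.39, SE 0.12). Neither gene of the first pair passed the threshold by itself, and in the second the difference was that of Rars2. Nars over Nars2 (0.39, SE 0.18), Eprs over Pars2 (0.28, SE 0.11) and Vars over Vars2 (0.25, SE 0.08) were the others, Eprs being shared by 2 of the 5. Each of the 5 had a two-sided exact permutation p of 0.10, the smallest that 3 libraries against 3 allow. Adjusted over the 19 ratios tested, the 17 pairs with Farsa over Farsb and Aimp1 over Aimp2, this became 0.38. Lars over Lars2 overlapped between the groups (4.37 ± 0.856 and 5.32 ± 0.716, SD, n = 3 each).

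**Figure D4:**
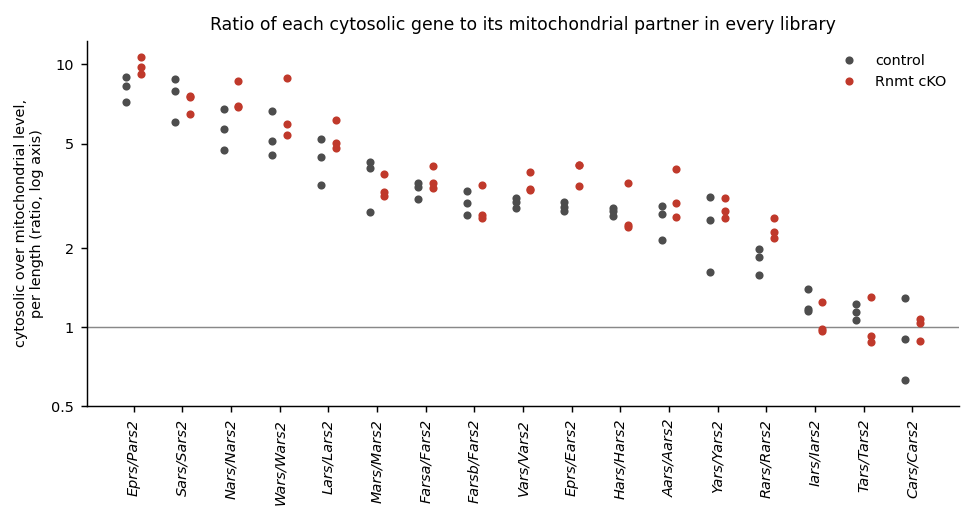
Ratio of the level per length of each cytosolic gene to that of its mitochondrial partner (log axis), with 1 point per library, control in grey and Rnmt cKO in red, ordered by the control mean. The line marks a ratio of 1. Eprs over Pars2 was highest at 8.17 in controls, and in Eprs over Ears2 the control points (2.77 to 2.99) lie below all Rnmt cKO points (3.44 to 4.15).

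Some cytosolic genes varied widely among the control libraries. In controls the coefficient of variation was 36.7% for Cars, 30.3% for Yars, 23.0% for Mars and 21.9% for Aars, against a median of 7.15% over the 8450 genes with a control mean of at least 10 CPM. In Rnmt cKO cells the same genes, picked here for their spread in controls, varied by 8.43%, 4.04%, 6.31% and 11.5%, against a median of 9.01% over the 8450. Over all 20 cytosolic genes the median was 9.28% in controls and 8.66% in Rnmt cKO cells. Cars was at 35.3, 51.9 and 24.7 CPM in the controls and 38.1, 33.1 and 33.1 CPM in Rnmt cKO cells. Yars was at 37.4, 49.2 and 26.4 CPM in the controls and 44.4, 41.7 and 45.0 CPM in Rnmt cKO cells. For both genes the Rnmt cKO libraries lay within the range of the controls.

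Many cytosolic genes were lowest or highest in the same library. Control library 3 was the lowest control for 16 of the 20 cytosolic genes, for 6 of the 17 mitochondrial genes and for 40.0% of the 8450 genes. The 16 held all 5 genes with the ATF4 element but also genes without it, and only 13 of the 20 had a promoter window to search. Rnmt cKO library 3 was the highest of its group for 18 of the 20 cytosolic genes, for 4 of the 17 mitochondrial genes and for 48.9% of the 8450. Among 23 tested ATF4 targets that are not synthetases these counts were 20 and 18. Their summed level was 926, 969 and 794 CPM in the controls and 867, 857 and 943 CPM in Rnmt cKO cells. Genes of a library are not independent of each other, and no test was made. The share of uniquely mapped reads with no gene on their sense strand was 36.1%, 39.7% and 46.1% in controls and 47.9%, 46.5% and 31.8% in Rnmt cKO cells. Among controls it was lowest in library 1 and highest in library 3, and among Rnmt cKO libraries it was lowest in library 3. Its part in these values was not tested. With that share as a covariate in edgeR's quasi-likelihood fit, 10 of the 39 genes passed, with Dars, Lars, Lars2, Nars2 and Rars2 lower and Eprs, Farsa, Kars, Vars and Wars higher, while calls over all genes rose to 1466 lower and 1696 higher. This was 25.6% of the 39 genes and 25.6% of all genes.

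The genes around the synthetases were described by lists. Of 15 partners of the enzymes, 2 were lower and 1 was higher, with a median log2 fold change of 0.01. This was 20% of the 15, against 14.8% of all genes, and with so few genes not far from that share. The lower ones both serve selenocysteine, the amino acid that is made on its tRNA: Pstk, the kinase of seryl-tRNA, was at 21.5 ± 1.11 CPM in the controls and 15.01 ± 0.182 CPM in Rnmt cKO cells (log2 fold change -0.51, adjusted p = 0.00180), and Trnau1ap, which associates with selenocysteine tRNA, at 31.1 ± 4.84 and 22.0 ± 0.844 CPM (-0.50, adjusted p = 0.00514). The higher one was Prorsd1, a relative of the editing domain of prolyl-tRNA synthetases, at 11.02 ± 0.944 and 19.99 ± 1.61 CPM (0.86, adjusted p = 9.87e-07; edgeR exact test, SD and n = 3 throughout).

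Genes of tRNA maturation and modification gave 4 higher and none lower of 60 tested (median log2 fold change 0.06), led by the methyltransferase genes Trmt10a (0.72), Trmt6 (0.38) and Nsun2 (0.29). The share that was higher was near that of all genes. By edgeR's exact test 6 were higher and none was lower with an unadjusted p below 0.05, against 13.3% and 11.7% of all genes, and 2 were higher and none lower by the DESeq2 Wald test. Of 18 tested factors of mitochondrial translation 1 was lower, Tfb1m (-0.71), which methylates mitochondrial ribosomal RNA, and none higher, a count that was the same at an unadjusted p and by the DESeq2 Wald test. ATF4 targets other than synthetases gave 1 higher (Ndrg1, 0.84) and 1 lower (Slc7a1, a transporter of cationic amino acids, -0.49) of 23 tested, with a median of 0.02. Amino acid sensing gave 2 higher (Rragd, 1.00, and Gatsl3, 0.47) of 23 tested and none lower, with a median of 0.05 (3 higher and none lower with an unadjusted p below 0.05, and 1 higher by the DESeq2 Wald test). The share called in either direction was 5.56% for the mitochondrial factors, 8.70% for the ATF4 targets and 8.70% for amino acid sensing, against 14.8% of all genes. Proliferation genes, by contrast, gave 40 higher of 45 tested, or 88.9% (38 by the DESeq2 Wald test), with a median of 1.95. Their summed level was 634 to 688 CPM in the controls and 1219 to 1315 CPM in Rnmt cKO cells. The part of cycling cells in the synthetase values was not tested.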

How the data were processed

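RNA from naïve CD4 T cells was sequenced by the authors as 75 bp pairs after depletion of ribosomal RNA, aligned to mm10 with STAR 2.5.2b and GENCODE vM12, per the study's methods and the labels. The deposited tables hold raw counts per gene for each library, and the sense column was used. The authors' deposited edgeR table also holds a normalized signal per sample, used only to check which strand column they counted (all of its 11221 genes matched to within 0.05 counts), and columns of fold changes and p-values, which were not used.

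Genes above 1 CPM in at least 3 samples were scaled by TMM and tested with edgeR 4.0.16 (R 4.3.3), exact test on tagwise dispersions, adjusted by Benjamini-Hochberg over 12336 genes. A log2 fold change sets Rnmt cKO over control, with its SE from log2 CPM at a prior count of 2. Alternatives used DESeq2 1.42.0 and the edgeR quasi-likelihood test. Levels per kb use exon lengths of GENCODE vM21, which also gave coordinates. Promoter windows came from RefSeq. The p-values measure the spread between 3 animals per group. On simulated data with 200 genes changed 2-fold, the exact test recovered 85.5% and called 29 unchanged genes of 12195 tested. With at most 200 true calls, those 29 were a larger share of calls than the adjusted p threshold aims for. The quasi-likelihood test recovered 79% with 10 such calls, and DESeq2 79.5% with 14. Lars2, Rars2, Dars and Vars, with log2 fold changes from -0.53 to 0.44, changed less than 2-fold. Recovery of changes of that size was not simulated.

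The genes and lists were chosen with earlier results of these data known. Given in every library were genes past the threshold, the highest 3 and lowest 2 per class by level per length, the 3 largest changes per class, and Eprs, Kars, Gars, Qars, Ears2, Wars, Farsa, Farsb, Aimp1 and Aimp2; from lists at most the 3 genes with the smallest adjusted p. Of what meets the rules, 1 gene and 1 promoter match are counted but not reported here by name or in the figures and ratios. Other genes were named after their values were seen. Counts without overlap mean that every library of one group was above every library of the other.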

Additional observations from a re-analysis of the deposited data

How the results depend on the processing

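The counts of genes and the class medians were recomputed under 15 alternatives. Of the 39 genes, 3 lower and 1 higher became 0 (1 with an unadjusted p below 0.05, edgeR exact test) and 5 when libraries were scaled by size alone, 1 lower without the filter on low counts, and 5 and 5 with the share of uniquely mapped reads outside genes as a covariate. Over all genes, 844 lower and 987 higher became 535 and 1938 with library size alone, and 1466 and 1696 with that covariate. The mitochondrial median of -0.09 became 0.040 with library size alone. Leaving out 1 library gave 0 to 5 genes lower and 1 to 2 higher, 547 to 1285 and 643 to 1221 over all genes, and medians of -0.14 to -0.017 (mitochondrial) and -0.03 to 0.14 (cytosolic). Deviations of same-numbered libraries were not positively correlated (-0.35 to -0.02). With 3 libraries per group this cannot exclude that the replicate numbers mark pairs. The replicate block is given here only: with it, in edgeR's quasi-likelihood fit, 0 genes of the 39 were lower and 0 higher (4 and 2 with an unadjusted p below 0.05), with 276 and 431 over all genes. Direction was kept under all 15 alternatives by Dars, Lars2, Rars2 and Vars, which passed in 7, 12, 6 and 14 of them. Vars missed the threshold only with the block, and Lars2 with the block, with library size alone and without control library 2. The quasi-likelihood and DESeq2 Wald tests each called Dars, Lars2 and Vars. The causes were not tested. Precision was limited by 3 libraries per group and, for Lars2, by at most 205 reads per library.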
